A study of Chlorocebus aethiops with 36 samples.

Results

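The hepatic genes of bile acid synthesis and transport, together with NR0B2, the gene of the small heterodimer partner (SHP), were examined in liver biopsies of African green monkeys. The group held 10 genes: NR0B2, ABCB11, ABCB4, ABCC2, SLC10A1, SLCO1B1, CYP7A1, CYP8B1, CYP27A1 and BAAT. They were taken by name, as every probe set whose platform annotation gives only 1 of these symbols, which gave 12 of the 54675 probe sets on the array and 10 of the 19775 genes with a probe set of their own. ABCB11 and ABCB4 had more than 1 such probe set, and 1 further probe set annotated to both ABCB4 and ABCB1 was left out by this rule.

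RNA came from 12 male African green monkeys (Chlorocebus aethiops) and was hybridised to a human array (HG-U133 Plus 2.0), 36 arrays in all. Anti-miRs are short synthetic nucleic acids that pair with 1 microRNA and keep it from its targets. Of the animals, 6 received anti-miR-33 and 6 a control anti-miR, both at 5 mg/kg under the skin, in 2 doses a week for 2 weeks and then weekly for 10 weeks. Every animal was biopsied at week -5, before treatment, at week 4 of treatment, when the design has all animals on chow, and at week 12, after 8 weeks on a diet high in carbohydrate and moderate in cholesterol. The labels of the untreated baseline biopsies name no arm, so the arm was taken from the later labels of the same animal. The control animals also carried an oligonucleotide, so a change shared by both arms from week -5 to week 4 joins dosing and elapsed time, and one that ends at week 12 joins the diet as well; within each interval these cannot be told apart here.

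Bile acids are made from cholesterol in hepatocytes. The classic route begins with CYP7A1, the rate-limiting enzyme, the alternative route with CYP27A1, and CYP8B1 sets the amount of cholic acid. Bile acids that return to the hepatocyte activate the nuclear receptor FXR, which raises SHP and the bile salt export pump, and SHP in turn represses CYP7A1 and CYP8B1. ABCB11 and CYP7A1 have been reported as targets of miR-33 in human or mouse cells, so the comparison between arms asks whether blocking the microRNA moved their transcripts in a primate liver.

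The arrays had a common distribution, with medians between 4.42 and 4.51 on the log2 scale. All 12 hepatocyte markers lay above the filter on low values, and their mean was between 12.49 and 13.22 on every array. The lowest was the week 12 array of control animal 5. Its brightest probe set read 13.80, against 14.99 to 15.02 in the other week 12 control arrays and 15.00 to 15.03 under anti-miR-33 at that time. The next lowest mean, 12.86, was the week 4 array of anti-miR-33 animal 5, whose brightest probe set read 14.28. For control animal 6 at week 4 the brightest read 14.80. In the labels, the serial numbers of all 12 baseline and all 12 week 12 arrays lie below those of all 12 week 4 arrays. Whether they mark a processing batch is not stated. Week 4 and such a batch cannot be told apart. The 3′ minus 5′ value, the difference in log2 signal between the 3′ and 5′ control probe sets of GAPDH and ACTB, is larger where RNA is shorter; its mean was 2.57 ± 0.43 in the baseline arrays, 1.94 ± 0.41 in those of week 4 and 1.83 ± 0.16 in those of week 12 (SD, n = 12 each). GAPDH and ACTB, which are averaged in that value, gave like means at baseline (2.57 each) and at week 12 (1.83 each). At week 4 they parted, at 2.24 ± 0.40 for GAPDH and 1.65 ± 0.44 for ACTB. The covariate used below is their average, and why they parted was not tested. Of the week 4 arrays, 1 (control animal 1) carried the label of the later diet, against the design, and the same array had the lowest 3′ minus 5′ value, 1.09. The biopsies are whole liver, so a lower level can come from fewer cells of a type or from less RNA per cell, and the 2 cannot be told apart. The endothelial markers moved with time: 4 of the 6 tested were lower at week 12 than at baseline, and their mean per array was 5.92 to 6.30 at week 12 against 6.33 to 6.98 at baseline. Of 5 stellate cell and fibroblast markers tested, COL1A2 and COL3A1 were lower at both later times than at baseline. Both blood markers tested, HBB and ALAS2, were lower at week 12 than at either earlier time, with means per time of 8.82 ± 0.56 in the baseline arrays, 8.91 ± 0.52 in those of week 4 and 7.82 ± 0.45 in those of week 12 (SD over 12 arrays). Of all 13634 tested genes, 20.6% were lower by week 4 and 16.5% by week 12, both from week -5 and at an adjusted p under 0.05. From week 4 to week 12, 27.6% differed in either direction. The part of these cell type and blood markers in the results below, those of NR0B2, SLC10A1 and CYP27A1 at week 12 included, was not tested.

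Differences were tested in limma over 13634 genes, with the animal as a block, and a gene is called where its Benjamini-Hochberg adjusted p is under 0.05. For a gene with several probe sets, the one of highest mean was used. Of the members, 9 entered this test. CYP7A1 did not, because its probe set averaged 3.12, above only 8.67% of all probe sets, and its values come from a limma fit on all 41097 probe sets with 1 gene. Values are log2 units of the named gene's own probe set and are not set against those of another gene.

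NR0B2, the transcript of SHP, rose at week 12. In the anti-miR-33 arm its lowest, median and highest values were 7.75, 8.10 and 8.40 at week -5, 7.34, 8.27 and 8.65 at week 4, and 8.15, 8.87 and 9.24 at week 12. In the control arm they were 7.10, 7.94 and 8.46 at week -5, 7.64, 8.16 and 8.72 at week 4, and 8.40, 9.41 and 9.60 at week 12. Arrays of the first and middle times overlapped broadly in both arms, and at week 12 most arrays stood above every earlier one of their arm, with a single low array in each arm. Over both arms NR0B2 rose by 1.04 ± 0.15 (SE) from week -5 to week 12, a 2.05-fold change (adjusted p = 2.1e-06), and by 0.83 ± 0.15 from week 4 to week 12 (adjusted p = 1.0e-04). The change from week -5 to week 4 was 0.21 ± 0.15 and was not called (adjusted p = 0.278). NR0B2 was higher at week 12 than at week -5 in 11 of 12 animals (exact sign permutation p = 9.8e-04); the exception was control animal 5, with a change of -0.06.

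The NR0B2 change from week -5 to week 12 was 0.73 ± 0.21 under anti-miR-33 (adjusted p = 0.0141) and 1.35 ± 0.21 under control (adjusted p = 4.1e-05). By animal it was 0.76, 0.17, 0.56, 1.00, 1.05 and 0.84 in the anti-miR-33 arm, against 0.86, 2.39, 1.53, 1.69, -0.06 and 1.66 in the control arm. In 4 control animals the rise was thus larger than in any animal given anti-miR-33, while another control animal showed none. The arms did not differ past the threshold in this change (-0.62 ± 0.30, anti-miR-33 minus control, adjusted p = 0.999; exact permutation of arms p = 0.132). Without the week 12 array of control animal 5 the NR0B2 difference between arms in this change was -0.79, again not called. The call from week 4 to week 12 under anti-miR-33 alone (0.63 ± 0.21, adjusted p = 0.0436) held in only 5 of 12 other settings and 5 of 12 fits without 1 animal; it was lost without anti-miR-33 animal 1, 3, 4, 5 or 6 or control animal 3 or 6, at 0.43 (without anti-miR-33 animal 3) to 0.64.

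**Figure D1:**
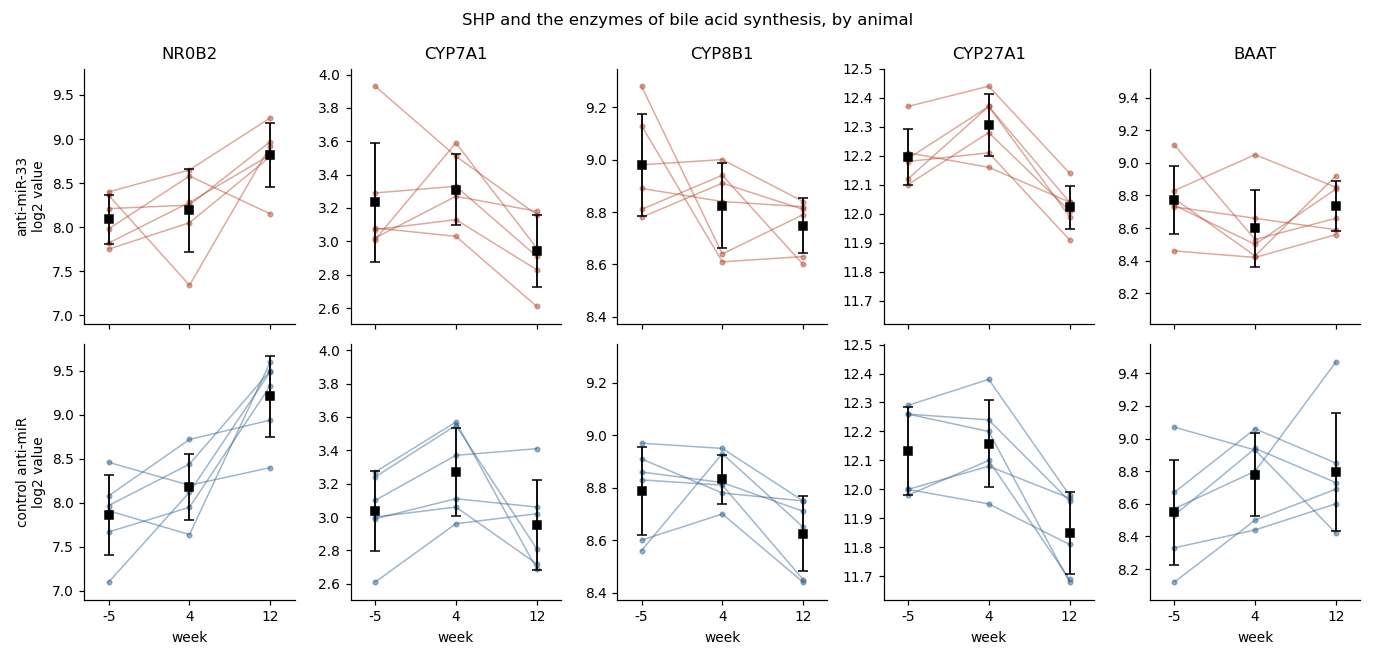
Log2 value of NR0B2, CYP7A1, CYP8B1, CYP27A1 and BAAT by week (-5, 4, 12), with the anti-miR-33 arm in the upper row and the control arm in the lower. Thin lines join the arrays of an animal, and squares and bars give the mean and SD of 6 animals; NR0B2 stands highest at week 12 in both rows, and CYP27A1 falls at week 12 in all 12 animals.

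Among the enzymes, CYP27A1 and CYP8B1 fell by week 12. CYP27A1, a mitochondrial sterol 27-hydroxylase, had lowest, median and highest values of 12.10, 12.19 and 12.37 at week -5, 12.16, 12.33 and 12.44 at week 4, and 11.91, 12.03 and 12.14 at week 12 in the anti-miR-33 arm. Control animals had values of 11.98, 12.13 and 12.29 at week -5, 11.95, 12.15 and 12.38 at week 4, and 11.68, 11.89 and 11.98 at week 12. Within the anti-miR-33 arm every week 12 value lay below every week 4 value, and the control arrays overlapped slightly. CYP27A1 fell by 0.30 ± 0.05 from week 4 to week 12 (0.81-fold, adjusted p = 3.6e-05) and by 0.23 ± 0.05 from week -5 to week 12 (adjusted p = 4.9e-04). Both falls were seen in 12 of 12 animals (exact sign permutation p = 4.9e-04, the smallest that 12 animals allow), and both were called in all 12 other settings and in all 12 fits without 1 animal. The week 4 difference from week -5 was 0.07 ± 0.05 and was not called.

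CYP8B1, the sterol 12-alpha-hydroxylase, had lowest, median and highest values of 8.78, 8.94 and 9.28 at week -5, 8.61, 8.88 and 9.00 at week 4, and 8.60, 8.80 and 8.84 at week 12 in the anti-miR-33 arm. The control arm had 8.56, 8.85 and 8.97 at week -5, 8.70, 8.82 and 8.95 at week 4, and 8.44, 8.68 and 8.75 at week 12. All times overlapped in both arms. CYP8B1 fell by 0.20 ± 0.06 from week -5 to week 12 (adjusted p = 0.0105), in 10 of 12 animals (exact sign permutation p = 0.00293). The difference from week 4 to week 12 was -0.14 ± 0.06 (adjusted p = 0.0694). The call was lost with the 3′ minus 5′ value as a covariate (-0.13, adjusted p = 0.402).

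CYP7A1, the rate-limiting enzyme of the classic route, read near the bottom of the array at every time. Its lowest, median and highest values were 3.01, 3.08 and 3.93 at week -5, 3.03, 3.30 and 3.59 at week 4, and 2.61, 2.94 and 3.18 at week 12 in the anti-miR-33 arm. Under control they were 2.61, 3.05 and 3.27 at week -5, 2.96, 3.24 and 3.57 at week 4, and 2.69, 2.92 and 3.41 at week 12. No time separated from another in either arm. In the fit on all probe sets the CYP7A1 value at week 12 was lower than at week 4 (-0.34 ± 0.09, adjusted p = 0.0102), against a background of 18.1% of these probe sets called. A value this near the bottom of the array does not give the size of a change in the transcript. CYP7A1 read lower at week 12 than at week 4 in 10 of 12 animals (exact sign permutation p = 0.00342), and the call held in all 8 other settings that could be fitted for it and in all 12 fits without 1 animal. The change from week -5 to week 12 was -0.19 ± 0.09 and was not called (adjusted p = 0.211), so the call rests on the week 4 arrays. These carry the higher serial numbers, and a batch that those may mark cannot be told apart from week 4. How much of the monkey transcript this human probe set reads was not tested.

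BAAT, which joins bile acids to glycine or taurine, was called in no comparison. Its changes over both arms were 0.03 ± 0.09 from week -5 to week 4 and 0.10 ± 0.09 from week -5 to week 12. From week -5 to week 4 it was lower in 5 of 6 animals under anti-miR-33 and higher in 5 of 6 under control, with mean changes of -0.18 and 0.23. This difference between arms of -0.41 ± 0.19 had an unadjusted p of 0.0378 in limma and an exact permutation p of 0.0216, and did not pass adjustment (adjusted p = 1.00). The arms stood apart by 0.23 ± 0.14 in BAAT at week -5, -0.18 ± 0.14 at week 4 and -0.06 ± 0.14 at week 12, and they differed by -0.28 ± 0.19 in the change from week -5 to week 12 (exact permutation p = 0.238).

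Of the canalicular exporters, ABCB11 was already higher at week 4. ABCB11, the bile salt export pump, had lowest, median and highest values of 5.96, 6.68 and 8.20 at week -5, 7.24, 7.57 and 8.82 at week 4, and 7.43, 8.06 and 8.25 at week 12 in the anti-miR-33 arm. In the control arm they were 6.55, 7.17 and 7.38 at week -5, 7.40, 7.79 and 8.05 at week 4, and 7.53, 8.11 and 8.58 at week 12. In the control arm both later times lay wholly above week -5. In the anti-miR-33 arm the baseline array of animal 1 (8.20) overlapped both later times, and that of animal 3 (7.28) overlapped week 4 alone. ABCB11 rose by 0.80 ± 0.17 from week -5 to week 4 (1.74-fold, adjusted p = 3.4e-04), in 12 of 12 animals (exact sign permutation p = 4.9e-04). By week 12 it rose by 1.10 ± 0.17 (2.14-fold, adjusted p = 6.6e-06), in 11 of 12 animals. With the 3′ minus 5′ value as a covariate the ABCB11 changes were 0.27 and 0.48, and neither was called. The second ABCB11 probe set averaged 3.96, below the filter, and its changes were 0.03 ± 0.07 and 0.06 ± 0.07.

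ABCC2, a canalicular pump for conjugated organic anions, had lowest, median and highest values of 7.06, 7.66 and 8.74 at week -5, 7.72, 8.29 and 9.14 at week 4, and 7.57, 8.38 and 8.95 at week 12 in the anti-miR-33 arm. Control animals had values of 7.27, 8.13 and 8.27 at week -5, 7.88, 8.32 and 8.71 at week 4, and 7.98, 8.13 and 9.07 at week 12. All times overlapped in both arms. ABCC2 rose by 0.45 ± 0.15 from week -5 to week 4 (adjusted p = 0.0193) and by 0.45 ± 0.15 from week -5 to week 12 (adjusted p = 0.0239), each in 10 of 12 animals. Neither ABCC2 call was firm: with the 3′ minus 5′ value as a covariate both turned, to -0.08 and -0.17, and the second was lost without the block. The first was also lost without control animal 1 (0.39), and the second without anti-miR-33 animal 2, 3, 5 or 6 or control animal 3 or 5 (0.40 to 0.43).

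ABCB4, the floppase that supplies phosphatidylcholine to bile, was called in no comparison. Its main probe set had lowest, median and highest values of 8.41, 9.55 and 10.11 at week -5, 7.87, 8.72 and 9.21 at week 4, and 8.01, 9.05 and 9.70 at week 12 in the anti-miR-33 arm. The control arm had 8.22, 9.30 and 10.18 at week -5, 8.63, 9.39 and 9.70 at week 4, and 7.98, 8.87 and 10.08 at week 12. ABCB4 varied widely among animals, with an SD over the 12 animals of 0.53 to 0.69 at each time. Its change over both arms was -0.41 ± 0.21 by week 4 (adjusted p = 0.127) and -0.43 ± 0.21 by week 12 (adjusted p = 0.134). Paired by animal and unadjusted, the week 4 value was below the week -5 value in 9 of 12 animals (exact sign permutation p = 0.0161), in 10 of 12 on the second ABCB4 probe set (p = 0.0171 in the same exact test) and in 10 of 12 on the probe set shared with ABCB1 (p = 0.00244). From week -5 to week 4 it was lower in 6 of 6 animals under anti-miR-33 and in 3 of 6 under control, with changes of -0.71 ± 0.30 and -0.12 ± 0.30, and the arms differed by -0.60 ± 0.42 in this change (adjusted p = 1.00; exact permutation p = 0.0303). On the second ABCB4 probe set the same difference was -0.24 ± 0.54, and on the probe set shared with ABCB1 it was -0.29 (exact permutation p = 0.314).

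**Figure D2:**
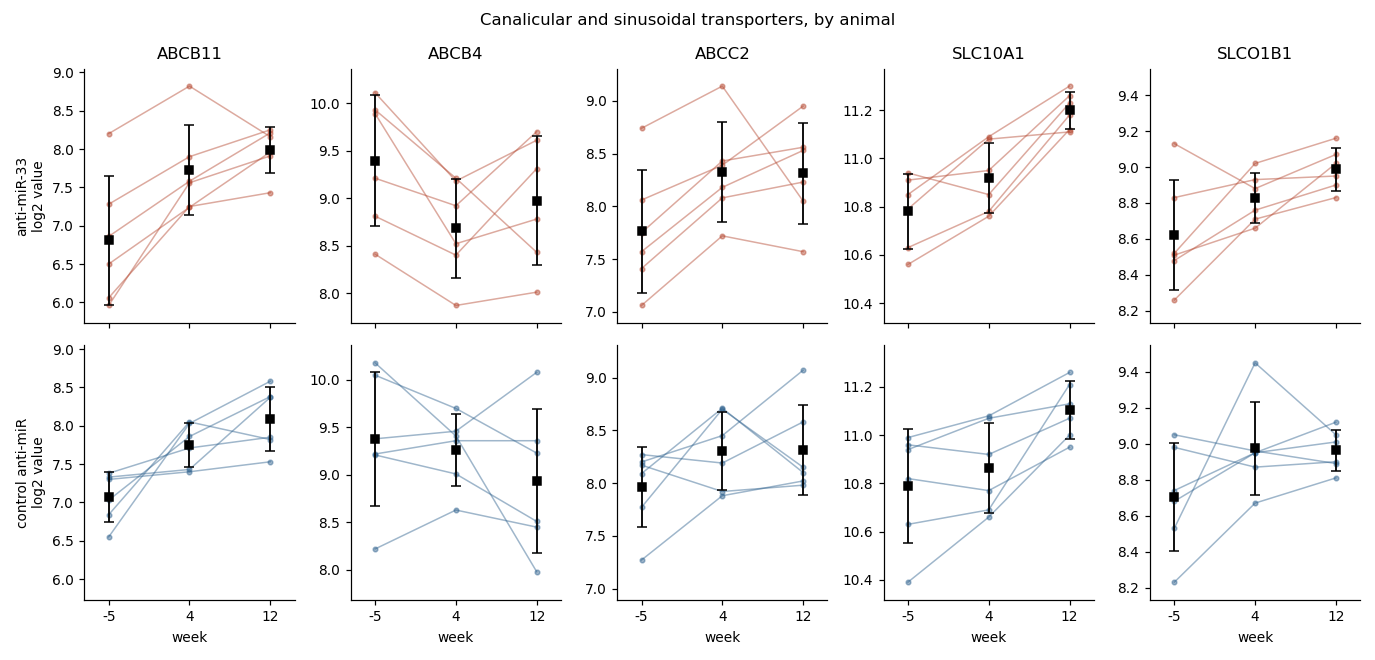
Log2 value of ABCB11, ABCB4, ABCC2, SLC10A1 and SLCO1B1 by week (-5, 4, 12), with the anti-miR-33 arm in the upper row and the control arm in the lower. Thin lines join the arrays of an animal, and squares and bars give the mean and SD of 6 animals; ABCB11 is already higher at week 4, SLC10A1 is highest at week 12 in all 12 animals, and ABCB4 scatters widely.

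Of the sinusoidal uptake carriers, SLC10A1 rose at week 12 in every animal. SLC10A1, the sodium-dependent taurocholate carrier, had lowest, median and highest values of 10.56, 10.82 and 10.94 at week -5, 10.76, 10.90 and 11.09 at week 4, and 11.11, 11.21 and 11.30 at week 12 in the anti-miR-33 arm. Under control they were 10.39, 10.88 and 10.99 at week -5, 10.66, 10.85 and 11.08 at week 4, and 10.95, 11.10 and 11.26 at week 12. In the anti-miR-33 arm every week 12 array lay above every earlier one, and in the control arm the ranges overlapped. SLC10A1 rose by 0.37 ± 0.06 from week -5 to week 12 (1.29-fold, adjusted p = 1.3e-05) and by 0.26 ± 0.06 from week 4 to week 12 (adjusted p = 0.00126), each in 12 of 12 animals (exact sign permutation p = 4.9e-04). Both SLC10A1 calls held in all 12 other settings and in all 12 fits without 1 animal, the 3′ minus 5′ covariate included (0.26 and 0.24).

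SLCO1B1, an organic anion carrier that takes up bile acids and drugs, had lowest, median and highest values of 8.26, 8.52 and 9.13 at week -5, 8.66, 8.82 and 9.02 at week 4, and 8.83, 8.99 and 9.16 at week 12 in the anti-miR-33 arm. In the control arm they were 8.23, 8.71 and 9.05 at week -5, 8.67, 8.95 and 9.45 at week 4, and 8.81, 8.96 and 9.12 at week 12. All times overlapped in both arms, and the spread was smallest at week 12. SLCO1B1 rose by 0.24 ± 0.08 from week -5 to week 4 (adjusted p = 0.0186) and by 0.31 ± 0.08 from week -5 to week 12 (adjusted p = 0.0030), each in 9 of 12 animals. With the 3′ minus 5′ value as a covariate the SLCO1B1 changes were -0.05 and -0.03. The first SLCO1B1 call was also lost without control animal 1 (0.17) or without anti-miR-33 animal 2 (0.21).

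Counted together over both arms, 3 of the 9 tested members were called from week -5 to week 4 (ABCB11, ABCC2 and SLCO1B1, all higher), where 35.7% of all tested genes were called, 15.1% higher and 20.6% lower. That share is near the background. From week -5 to week 12, 7 of 9 were called, 5 higher (NR0B2, ABCB11, ABCC2, SLC10A1 and SLCO1B1) and 2 lower (CYP8B1 and CYP27A1), where 27.4% of all genes were called, 10.9% higher and 16.5% lower. From week 4 to week 12, 3 of 9 were called, NR0B2 and SLC10A1 higher and CYP27A1 lower, against 27.6% of all genes. The median change of the 9 members was 0.11, 0.31 and 0.08 over the 3 intervals, against -0.01, -0.01 and 0.01 for all tested genes. The members were chosen with earlier results of these data known, so an excess over all genes was not tested. With the 3′ minus 5′ value as a covariate 0, 3 and 3 members were called, and the 3 from week -5 to week 12 were NR0B2, SLC10A1 and CYP27A1.

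**Figure D3:**
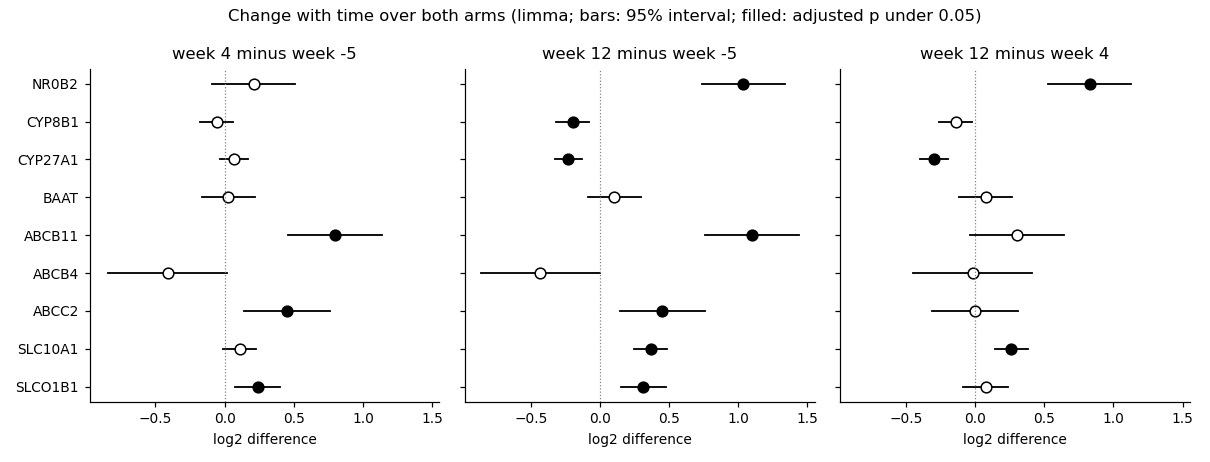
Log2 change of the 9 tested members over both arms for week 4 minus week -5, week 12 minus week -5 and week 12 minus week 4, from limma. Points are estimates, bars are 95% intervals and filled points have an adjusted p under 0.05: 3, 7 and 3 members in the 3 panels.

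Changes within each arm were taken from the same fit. From week -5 to week 4, ABCB11 alone was called under anti-miR-33 (0.92 ± 0.24, where 18.7% of all genes were called) and under control (0.68 ± 0.24, where 18.1% were called). By week 12, from week -5, 4 members were called under anti-miR-33, NR0B2, ABCB11 (1.18 ± 0.24), SLC10A1 (0.42 ± 0.08) and SLCO1B1 (0.37 ± 0.11), against 16.3% of all genes. Under control the 4 were NR0B2, ABCB11 (1.02 ± 0.24), SLC10A1 (0.32 ± 0.08) and CYP27A1 (-0.28 ± 0.07), against 9.51% of all genes. A member called in only 1 arm is not shown to differ between them, and the tests of the differences follow. From week 4 to week 12, NR0B2, SLC10A1 (0.28 ± 0.08) and CYP27A1 (-0.28 ± 0.07) were called under anti-miR-33, against 12.5% of all genes, and NR0B2 (1.03 ± 0.21) and CYP27A1 (-0.31 ± 0.07) under control, against 8.49%. Several of these calls lay near the threshold and were lost when 1 animal was left out, while the changes kept their sign. Under anti-miR-33, the week 12 calls from week -5 were lost for NR0B2 without animal 4 (0.68) or 5 (0.67) and for SLCO1B1 without animal 2, 4, 5 or 6 (0.31 to 0.36), and SLC10A1 from week 4 to week 12 was lost without animal 1, 3, 5 or 6 (0.26 to 0.28). Under control, the week 4 call of ABCB11 failed in 6 fits (0.51 to 0.74), those that left out animals 1, 2, 3 and 5 of the same arm and animals 2 and 3 given anti-miR-33, and its week 12 call failed without control animal 5 (0.81). SLC10A1 by week 12 was lost under control without animal 4 or 5 (0.26 each), and CYP27A1 without animal 4 (-0.22).

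Between the arms, 0 of the 9 members were called at week -5, week 4 or week 12, as were 0 of all 13634 genes (0%), and the same held for the 3 differences in change (0%). At an unadjusted p under 0.05, 1, 0 and 1 members stood out at the 3 times, against 3.89%, 4.86% and 3.04% of all genes, and 1, 1 and 0 for the changes from week -5 to week 4, week -5 to week 12 and week 4 to week 12, against 3.51%, 2.19% and 3.57%. The member at week -5 was CYP8B1 (0.19 ± 0.09), before any dose was given. The member at week 12 was CYP27A1, with 11.91 to 12.14 under anti-miR-33 and 11.68 to 11.98 under control, a difference of 0.17 ± 0.07 (unadjusted p = 0.0258; exact permutation p = 0.0281); the same difference was 0.15 ± 0.07 at week 4 and 0.06 ± 0.07 at week -5. The other 2 were the differences in change of BAAT and NR0B2 given above.

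For the members reported as miR-33 targets the intervals were as follows. ABCB11 differed between arms, anti-miR-33 minus control, by -0.26 ± 0.26 at week -5, -0.02 ± 0.26 at week 4 (95% interval -0.54 to 0.50) and -0.10 ± 0.26 at week 12 (-0.62 to 0.42). These ABCB11 intervals hold differences of either sign. CYP7A1 differed by 0.20 ± 0.14, 0.04 ± 0.14 and -0.01 ± 0.14 at the 3 times in the fit on all probe sets, where 0%, 0% and 0.00243% were called; the single probe set called at week 12 was no member. With CYP7A1 read near the bottom of the array, these values say little about a difference in its transcript. ATP8B1, a canalicular flippase also reported as a miR-33 target and named here after its values were seen, differed by 0.16 ± 0.16 at week -5, 0.11 ± 0.16 at week 4 and 0.07 ± 0.16 at week 12.

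**Figure D4:**
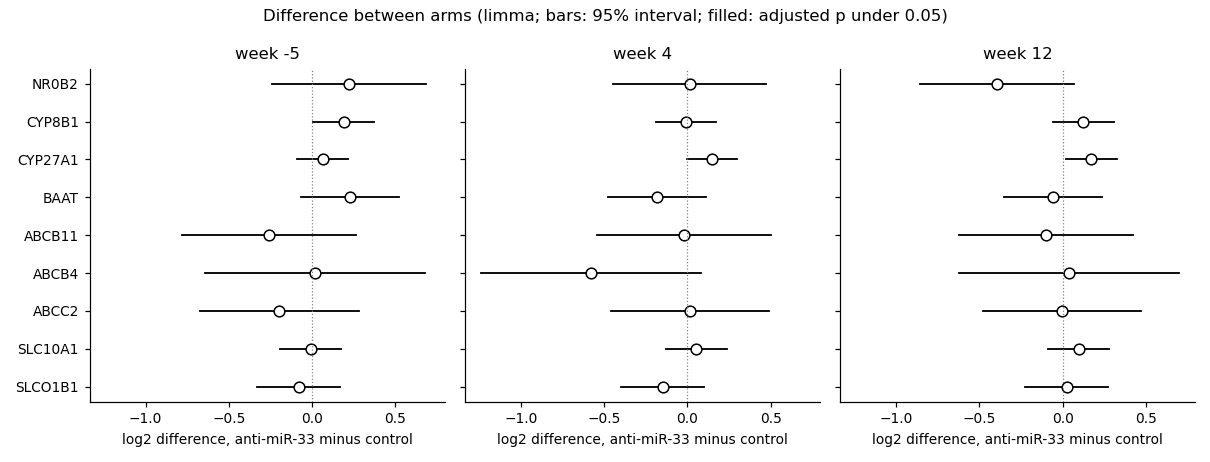
Log2 difference between the arms, anti-miR-33 minus control, of the 9 tested members at week -5, week 4 and week 12, from limma. Points are estimates and bars are 95% intervals; all points are open because 0 had an adjusted p under 0.05, and the widest intervals belong to ABCB4.

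Several members moved with the 3′ minus 5′ value inside the groups, that is, after each group's mean was taken away. Over the 36 arrays Pearson's r was -0.76 for SLCO1B1, -0.67 for ABCC2 and -0.60 for ABCB11, and arrays with a larger 3′ minus 5′ value read these transporters lower. It was -0.34 for SLC10A1, -0.26 for CYP7A1 and -0.20 for NR0B2, and between -0.02 and 0.15 for CYP27A1, ABCB4, BAAT and CYP8B1. These are descriptions over arrays that share animals, pooled over the 3 times, and they do not show the relation at each time. At week 12 the highest ABCB11 value, 8.58, stood on the array with the largest 3′ minus 5′ value of that time, 2.045. The baseline arrays had the highest mean 3′ minus 5′ value of the 3 times, and these transporters had their lowest means there. Beyond the covariate fit, the part of RNA length in their change with time was not tested.

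**Figure D5:**
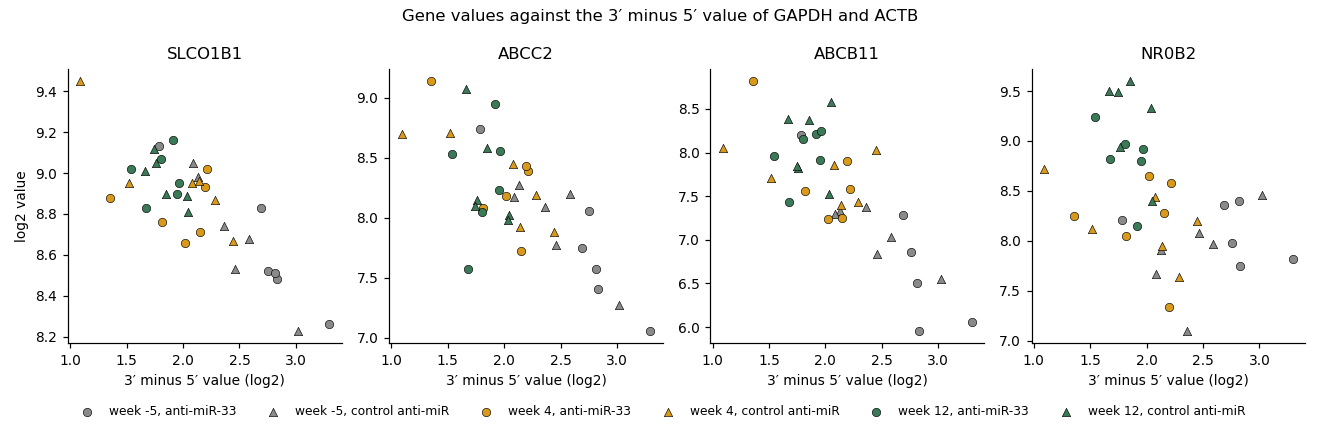
Log2 value of SLCO1B1, ABCC2, ABCB11 and NR0B2 against the 3′ minus 5′ value of each array; colours give the week, circles the anti-miR-33 arm and triangles the control arm. SLCO1B1, ABCC2 and ABCB11 fall as the 3′ minus 5′ value grows, also within a week, and most week -5 arrays lie at the right. NR0B2 has its highest mean at week 12. The 3′ minus 5′ values of week 12 arrays (1.54 to 2.045) and week 4 arrays (1.09 to 2.445) overlap in part.

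Some of the transporters varied together. With group means taken away, ABCB11 and ABCC2 had r = 0.77 over the 36 arrays and ABCC2 and SLCO1B1 0.67, the same genes that moved with the 3′ minus 5′ value. ABCB11 and ABCB4 ran opposite (r = -0.54), and the pair of ABCB4 probe sets had r = 0.82. NR0B2 had r between -0.04 and 0.04 with ABCB11, ABCC2, SLC10A1 and SLCO1B1. With ABCB4 it was 0.34 on the main probe set and 0.51 on the second. Across animals, the NR0B2 change from week -5 to week 12 had r = -0.41 (Spearman's rho -0.31) with that of CYP7A1 over 12 animals (permutation p = 0.186 and 0.332), and -0.11 without the 2 animals farthest from the median; within the arms r took values of -0.34 (anti-miR-33) and -0.79 (control; exact permutation p = 0.518 and 0.0569, 6 animals each). With the change of SLC10A1 it was -0.53 (rho -0.47, permutation p = 0.0789 and 0.131), -0.14 without the 2 farthest animals, and 0.11 under anti-miR-33 and -0.58 under control (exact permutation p = 0.860 and 0.232). For the NR0B2 and ABCB11 changes over the same interval, r came to -0.46 (rho -0.30, permutation p = 0.130 and 0.331). Without the 2 farthest animals this r fell to -0.14. Taken arm by arm, NR0B2 and ABCB11 had r = 0.21 (anti-miR-33; exact permutation p = 0.672) and r = -0.80 (control; exact permutation p = 0.0597). Of 10 such relations among NR0B2, CYP7A1, CYP8B1, ABCB11 and SLC10A1, none passed Benjamini-Hochberg adjustment. The lowest adjusted p was 0.616 for Pearson's r and 0.694 for Spearman's rho. The genes outside the pathway whose residuals were most like those of NR0B2 were RBM19 (r = 0.69), RCE1 (0.61), TSEN15 (0.60) and KCNA10 (0.60), and for CYP7A1 they were RAD51C (0.71), SLC2A2 (0.71), FBXO6 (0.70) and PCMTD2 (0.70), each over 36 arrays and given as a description.

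The wider pathway was taken as 57 other genes of synthesis, transport, detoxification and regulation, of which 40 were tested, 8 were below the filter and 9 were matched to no probe set of a single gene in the annotation used. Over both arms, 13 were called higher and 8 lower from week -5 to week 4, 11 higher and 7 lower from week -5 to week 12, and 6 higher and 8 lower from week 4 to week 12, where 35.7%, 27.4% and 27.6% of all tested genes were called; 0 were called between arms or in a difference in change. Their median change was 0.03, 0.00 and -0.03 over the 3 intervals, near 0 at each.

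Among 8 tested synthesis enzymes, 2 rose and 1 fell from week -5 to week 12, against 10.9% higher and 16.5% lower of all genes. SLC27A5, the bile acid CoA ligase that acts just before BAAT, fell by 0.57 ± 0.15 from week -5 and by 0.46 ± 0.15 from week 4; its other probe set changed by 0.06 and -0.13. CYP39A1, an oxysterol 7-alpha-hydroxylase, rose by 0.50 ± 0.12 from week -5 to week 4, with 0.03 on its other probe set above the filter. SLC27A2, a very long chain acyl-CoA synthetase that also acts on bile acid precursors, fell by 0.49 ± 0.11 over the same interval, with -0.35 on its other probe set. AKR1C4, a reductase of the sterol ring, rose by 0.31 ± 0.08 from week 4 to week 12.

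Of 6 tested genes of canalicular export, 4 rose and 1 fell from week -5 to week 12, where 27.4% of all genes were called. ABCB1, the multidrug exporter, rose by 0.63 ± 0.08 from week -5 and by 0.48 ± 0.08 from week 4 on the probe set used. Its other probe set, below the filter, changed by -0.03 and -0.08. The probe set shared by ABCB4 and ABCB1 changed by -0.50 and 0.11. TMEM30A, the partner subunit of ATP8B1, rose by 0.52 ± 0.11 from week -5 to week 12, while ATP8B1 fell by 0.57 ± 0.10 and its other probe set changed by 0.15. ABCG2 rose by 0.48 ± 0.11 from week -5 to week 4, and ABCG5, of the sterol exporter ABCG5/ABCG8, rose by 0.33 ± 0.12 from week 4 to week 12. Of 2 tested basolateral exporters, ABCC3 fell by 0.37 ± 0.14 from week 4 to week 12 (adjusted p = 0.0489), and its 4 other probe sets above the filter read -0.37, -0.16, -0.04 and 0.03. Of 5 uptake carriers SLC22A7 rose by 0.52 ± 0.20 from week -5 to week 4, with 0.42 to 0.82 on its 4 other probe sets.

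Among 16 tested regulators, 3 rose and 4 fell from week -5 to week 12, against the same 27.4% of all genes called. ONECUT1, a hepatocyte transcription factor, rose by 0.77 ± 0.12 by week 4 and by 0.74 ± 0.12 by week 12, both from week -5. NR1H3, the oxysterol receptor LXR alpha, fell by 0.50 ± 0.09 and 0.53 ± 0.09 over the same intervals, and KDM6B, a histone demethylase, fell by 0.46 ± 0.13 and 0.60 ± 0.13, with -0.26 to -0.10 and -0.37 to -0.11 on its 4 other probe sets. FGFR4, the hepatic receptor of the intestinal hormone FGF19, fell by 0.50 ± 0.08 from week 4 to week 12, having risen by 0.41 by week 4, and DIO1, a deiodinase that activates thyroid hormone, rose by 0.32 ± 0.08. The FGFR4 rise and fall both rest on the week 4 arrays, which carry the higher serial numbers. Of 3 detoxification genes, SULT2A1, the bile acid sulfotransferase, rose by 0.51 ± 0.11 from week -5 to week 12 and GSTA1 fell by 0.42 ± 0.06 from week 4 to week 12. The other probe set above the filter read 0.08 ± 0.07 for SULT2A1 and 0.12 ± 0.08 for GSTA1, the second of opposite sign. With the 3′ minus 5′ value as a covariate, the calls of ONECUT1 (by week 12), TMEM30A, SULT2A1, KDM6B, ATP8B1, SLC27A5 (from week -5), CYP39A1, ABCG2, ABCG5 and SLC22A7 were lost, and ATP8B1 by week 4 turned to 0.10. Of the named calls of the wider pathway, 4 also failed in 6 to 8 of the 12 fits without 1 animal: ABCC3 (-0.31 to -0.40 in those fits), ABCG5 (0.30 to 0.33), SLC22A7 (0.45 to 0.52) and ATP8B1 by week 4 (-0.21 to -0.29). SLC27A5 from week 4 to week 12 was lost without control animal 5 (-0.42).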

How the data were processed

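The authors deposited log2 values of 54675 probe sets for 36 arrays, made with RMA per the submitters' processing notes; which version was used, or how many runs, the sources used here do not state. RMA normalizes between arrays, so a shift common to most transcripts would not show. Gene symbols came from the platform annotation, which can be old, and no sequence is shown because none was given with the annotation. All columns matched samples by identifier (0 unused).

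From these values, 1 probe set per gene (highest mean) with a mean of at least 4.459, the median of all probe sets, was kept. The 13634 genes were fitted in limma 3.58.1 under R 4.3.3. The model had a mean for each of 6 groups, a random effect of animal (correlation 0.151) and 15 comparisons, with two-sided moderated tests and Benjamini-Hochberg adjustment within each comparison. Pairing rests on the animal identifiers; 34 of 36 arrays were most like another array of their own animal. Exact permutations are two-sided; the smallest p they can give is 4.9e-04 over 12 animals, 0.0312 within an arm and 0.00216 between arms. Errors of single genes are standard errors of the fit. The limma step was tested on simulated data.

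The members and lists were chosen with earlier results of these data known. Other genes of the pathway are named where called, up to 4 of largest change in each direction of a comparison over both arms; FGFR4 by week 4 and ATP8B1 between arms stand outside that rule. Tried alternatives were the block, filters, probe set choice, normalization, the 3′ minus 5′ covariate, the prior, 2 doubtful arrays and each animal left out.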

Additional observations from a re-analysis of the deposited data

Results flagged for a closer look

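In a test for an array far from the other 5 of its group, 2 of 72 groups stood out, where chance gives about 3.6. SLCO1B1 read 9.45 in the week 4 array of control animal 1, and the next highest of that group was 8.96. The same array had the lowest 3′ minus 5′ value, 1.09, and the diet label that goes against the design; without control animal 1, SLCO1B1 and ABCC2 were no longer called from week -5 to week 4, and ABCB11 still was. CYP7A1 read 3.93 in the baseline array of anti-miR-33 animal 3, and the next highest of that group was 3.29. That array enters the estimated change only in the CYP7A1 comparisons with week -5, none of which was called. All groups of the fit share an estimate of the spread. The array therefore also enters the standard error of the other CYP7A1 comparisons, the called change over both arms included. That call held in the fit without this animal.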

How the results depend on the processing

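Limits: 6 animals an arm, 1 array each, and the spread among animals limit the precision, and levels near the bottom of the array (CYP7A1 and the second ABCB11 probe set) have little signal over background. The counts of called members are given for 12 other settings and for 12 fits that leave out 1 animal each. All 6 counts between arms and in the differences in change were 0 in every one of them.

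Over both arms the 3 changes had 3, 7 and 3 called members (week -5 to 4, week -5 to 12 and week 4 to 12). With the 3′ minus 5′ value as a covariate the first was 0 and the second 3; ABCC2 turned to -0.076 by week 4 and -0.17 by week 12, SLCO1B1 to -0.051 and -0.029, and ATP8B1 to 0.10 by week 4. Under anti-miR-33 alone this covariate left 0 by week 4 and 0 by week 12 (SLCO1B1 at -0.045), and under control 0 by week 4 and 2 by week 12. Why these values moved was not tested. The other settings kept the 3 counts over both arms within 1.5 times.

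Pairing: with no replicate block the counts over both arms were 3, 6 and 3; the count was 1 from week 4 to week 12 under anti-miR-33 and 0 by week 4 under control. With the animal as a fixed effect they were 3, 7 and 3, and the count by week 4 under anti-miR-33 was 3. The block changed no other count by over 1.5 times.

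Within an arm the counts were less steady. Under anti-miR-33, a filter at a mean of 6 gave 2 by week 4 and 7 by week 12, where fewer genes were tested, and quantile normalization gave 2 by week 4 and 1 from week 4 to week 12. Under control, by week 4, the count was 0 with no filter, with every probe set tested, with the mean of a gene's probe sets, with a trended robust prior and without the week 4 array of control animal 1, and 2 with quantile normalization; ABCB11 is the gene lost. The cause was not tested.

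Leaving out 1 animal gave 1 to 3 members over both arms by week 4 (1 without control animal 1), 6 to 7 by week 12 and 3 to 4 from week 4 to week 12. Under anti-miR-33 the ranges were 1 to 2, 2 to 5 and 1 to 3, and under control 0 to 2, 2 to 4 and 2 to 2.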
